A study of Mus musculus with 5 samples.

Results

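Alveolar macrophages were described in single-cell RNA sequencing of autochthonous mouse small cell lung cancer (SCLC), as 947 of 86606 kept barcodes in 5 libraries. A barcode was kept with over 150 detected genes and at most 20% of its unique molecular identifiers (UMIs, 1 per captured RNA molecule) from mitochondrial genes. A kept barcode was taken as an alveolar macrophage when it held at least 4 UMIs of Chil3, Ear2, Siglecf, Mcemp1, Plet1 and Marco in sum, with at least 2 of these 6 genes seen, and 0 UMIs of Cd3e, Cd79a, Ms4a1 and Ccr2. The levels of these 10 genes chose the barcodes and are therefore given as a description.

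All mice carried Rb1 fl/fl x Trp53 fl/fl alleles, and tumours were induced by inhaled adenoviral Cre, so that the recombined cells are those that took up the virus. The 5 libraries, 1 for each treatment, came from lung tumours of mice given vehicle (PBS), anti-PD-1, the ERBB2 inhibitor (ERBB2i, mubritinib), both agents (combination), or both agents and harvested in response (combination in response). Each agent was dosed at 10 mg/kg every 3 days. Tumours were left to grow until they could be measured by CT, and tumour tissue was kept cold and shipped before dissociation. The deposited libraries held 21624506 to 88497833 UMIs. With 1 library per treatment no difference between treatments could be tested, and every interval below covers counting error only. The labels call the samples epithelial, whereas the member barcodes were chosen here for macrophage genes. Barcodes were 24 bases long in ERBB2i and combination but 27 in the other libraries, so that treatment, animal and library design cannot be told apart between these sets.

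Alveolar macrophages live on the air side of the alveolus, where they take up surfactant lipid, inhaled particles and dead cells. They form under GM-CSF and TGF-beta signals, which maintain the lipid regulator PPAR-gamma, and are set apart from the C1q-rich macrophages of the lung interstitium and of tumours by genes of lipid binding and by lectin-like surface proteins. Of the rule genes, Chil3 encodes a chitinase-like secreted protein, Ear2 an eosinophil-associated ribonuclease that macrophages also make, Siglecf a sialic acid-binding receptor, Marco a scavenger receptor, and Plet1 and Mcemp1 surface proteins.

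Members made up 3.19% of the kept barcodes of combination (868 of 27203, exact Clopper-Pearson 95% interval 2.99 to 3.41) and 0.693% of those of vehicle (67 of 9674, 0.537 to 0.879). ERBB2i held 10 of 26294 (0.0380%, 0.0182 to 0.0699) and anti-PD-1 held 2 of 13320 (0.0150%, 0.00182 to 0.0542). None was found among 10115 barcodes of combination in response, which allows a share of up to 0.0297% by a limit of 3 counts. The interval of combination lay above those of all other libraries, and that of vehicle above those of the remaining 3. Median depth over kept barcodes ran from 1225 UMIs in combination in response to 5302 in vehicle. After each barcode was thinned to 500 UMIs the rule found 328 members in combination, 11 in vehicle, 2 in ERBB2i and none in anti-PD-1 and combination in response, with combination again above vehicle and vehicle above ERBB2i.

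**Figure D1:**
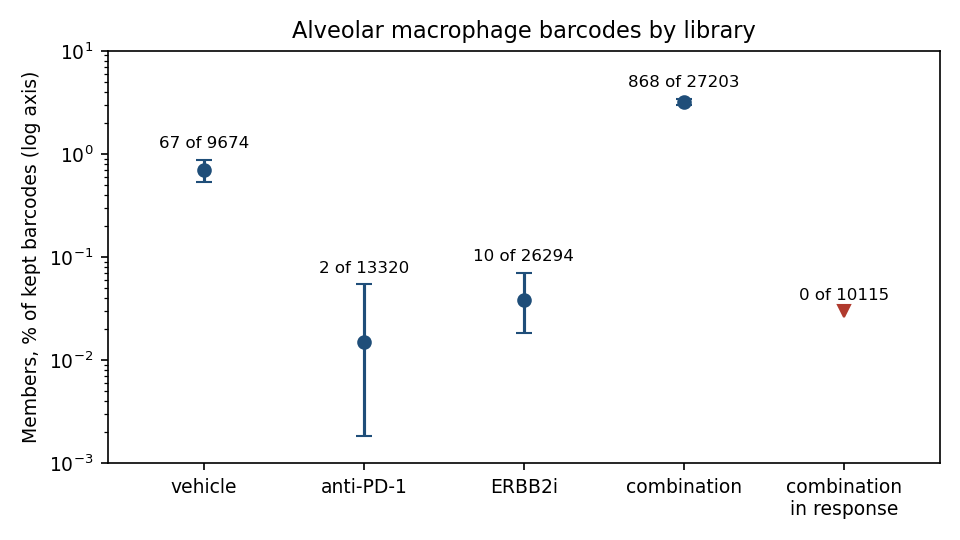
Share of alveolar macrophage barcodes among kept barcodes (percent, log axis) in each of the 5 libraries, 1 per treatment. Points are the share and bars the exact 95% interval for counting error, the number above each is members of kept barcodes, and the red triangle marks the upper limit of 0.0297% for combination in response, which held none.

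Members of combination had a median of 2779 UMIs (515 to 21640) and 3201442 UMIs in sum, and those of vehicle a median of 12859 (500 to 64404) and 1051086 in sum. The members of ERBB2i held 20650 UMIs and those of anti-PD-1 11952. At the threshold, 73 members of combination and 9 of vehicle had exactly 4 rule UMIs, and 95 and 7 barcodes with 3 UMIs over at least 2 rule genes stayed outside. A further 113 and 27 barcodes stayed outside because all their rule UMIs came from 1 gene, and 29 and 4 because of a Ccr2 UMI. No member barcode sequence was a member in more than 1 library, and 24 members of combination shared their barcode sequence with some barcode of ERBB2i, among 782 barcode sequences shared by these libraries.

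Levels are given as CPM, the UMIs of a gene summed over member barcodes per 1000000 UMIs of these barcodes. Chil3 stood at 4724 CPM in combination (95% interval 4649 to 4800), 2232 in vehicle (2143 to 2324), 2082 in ERBB2i (1507 to 2805) and 3849 in anti-PD-1 (2818 to 5134). It was seen in 830 of the 868 members of combination but in only 36 of the 67 of vehicle. In the other kept barcodes Chil3 stood at 51.3 CPM in combination, 3.31 in vehicle, 1.13 in ERBB2i and 0.186 in anti-PD-1. How far RNA from outside the cell brought barcodes of other cells past the rule was not tested. Marco was highest in vehicle, with 1124 CPM in vehicle, 515 in combination, 1 UMI in ERBB2i and none in anti-PD-1. Plet1 stood at 791 CPM in vehicle, 599 in combination and 581 in ERBB2i, and was not seen in anti-PD-1. In vehicle and combination Ear2 stood at 469 and 431 CPM and Siglecf at 41.9 and 49.0. Mcemp1 stood at 323 CPM in vehicle, 380 in combination, 1065 in ERBB2i and 586 in anti-PD-1. In mouse genome build GRCm38.p6 (mm10) Chil3 lies at chr3:106147554-106167564, Ear2 at chr14:44102654-44103531, Siglecf at chr7:43351341-43359475, Mcemp1 at chr8:3665762-3668905, Plet1 at chr9:50494525-50505639 and Marco at chr1:120474538-120505024.

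Ear2 has a close neighbour, Ear1 (chr14:43818765-43819639), which was not used by the rule and also marks alveolar macrophages. The 250 bases before each gene's start are printed to show how alike these copies are, 5′ to 3′ on the strand of the gene, from RefSeq on GRCm38.p6, with the bases that differ in an alignment of both in capitals. Ear1 (chr14:43819640-43819889, minus strand) and Ear2 (chr14:44102404-44102653, plus strand) matched at 246 of 252 aligned positions (97.6%), 4 of the others being gaps at the ends.
Ear1: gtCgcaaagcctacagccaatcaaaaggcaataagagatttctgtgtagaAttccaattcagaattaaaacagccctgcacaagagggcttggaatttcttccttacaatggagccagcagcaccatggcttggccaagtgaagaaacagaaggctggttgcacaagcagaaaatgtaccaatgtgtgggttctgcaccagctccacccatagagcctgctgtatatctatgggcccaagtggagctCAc
Ear2: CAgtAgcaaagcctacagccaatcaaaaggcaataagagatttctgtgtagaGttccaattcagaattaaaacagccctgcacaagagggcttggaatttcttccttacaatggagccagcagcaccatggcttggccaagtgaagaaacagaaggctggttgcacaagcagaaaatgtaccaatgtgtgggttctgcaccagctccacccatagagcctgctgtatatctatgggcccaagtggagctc
These bases lie before each gene's start, and the transcripts that were counted were not aligned, nor was the related gene Ear6. Whether reads of Ear1, Ear2 and Ear6 were split or lost in counting was not tested, so their separate values are uncertain.

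The label was checked against genes that the rule did not use. In combination the members as a whole carried identity genes of alveolar macrophages, though 142 of the 868 also held at least 4 C1q UMIs and are described separately below. Fabp4, a fatty acid-binding protein of alveolar macrophages, stood at 863 CPM in members against 19.0 in the other kept barcodes of that library, Ctsk (cathepsin K) at 2534 against 37.7, Lpl (lipoprotein lipase) at 2726 against 64.6 and Atp6v0d2, a proton pump subunit, at 1039 against 21.3. Of the 868 members, 838 held a UMI of at least 1 of these 4 genes. Thinned to 500 UMIs, Ctsk was seen in 57.1% of the members and in 2.13% of the other barcodes. Among 24 identity genes, 23 reached 10 UMIs in combination members, all 23 at 2 or more times their level in the other barcodes, and the GM-CSF receptor chain Csf2rb stood at 484 against 11.2 CPM. The regulator Pparg stood at 82.8 against 3.42 CPM, and 15 of 15 genes of the GM-CSF and TGF-beta list were at 2 or more times the level of other barcodes. Members of vehicle passed this mark for 21 of 22 identity genes and 14 of 15 genes of that list. In combination 9 of 11 genes of the C1q and interstitial list passed it too. The mark therefore sets members apart from all other barcodes, but does not tell alveolar from other macrophages.

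In vehicle the members were mixed. Of the 67, 24 held no UMI of Chil3, Ear2, Siglecf or Plet1 and had entered by Marco and Mcemp1 alone. No such barcode was found among the 868 of combination. All 24 held at least 5 UMIs of the acute-phase gene Saa3. Over these 24 barcodes Saa3 stood at 26642 CPM, Prg4 (lubricin) at 6877, Cd5l, a secreted protein of resident macrophages, at 4269, Arg1 (arginase 1) at 4275 and Marco at 2833, while Ctsk stood at 3.08 CPM, Atp6v0d2 at 3.08 and Chil3 and Pparg had no UMI. The other 43 members of vehicle carried Ctsk at 1920 CPM, Lpl at 2988, Atp6v0d2 at 1468, Chil3 at 3232 and Saa3 at 1040, with Ear2 at 679, Plet1 at 1145, Marco at 358, Mcemp1 at 263 and Siglecf at 60.6. In all, 30 members of vehicle held at least 5 UMIs of Saa3, so that some of these 43 did too, most of them with 1 UMI of Chil3, Ear2, Siglecf and Plet1 in sum. The data thus went against the label for the 24 barcodes, which are called the Saa3/Prg4 barcodes here. Most list medians and named ratios of combination over vehicle are given below with and without them. Values without them still include the other members with Saa3. Without them the share of vehicle was 0.444% (43 of 9674, 0.322 to 0.598). Over all members, Gata6 was seen in 18 of 67 barcodes of vehicle and 11 of 868 of combination, and Icam2 in 24 of 67 and 3 of 868. Which cell type the Saa3/Prg4 barcodes are was not tested.

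The few members of anti-PD-1 and ERBB2i carried the label's other markers not at all or in part. In anti-PD-1, 1 of the 2 barcodes held all 1860 UMIs of the neutrophil granule genes Camp, Ngp, Lcn2 and Ltf, S100a8 reached 220047 CPM over both, and no UMI of Fabp4, Ctsk, Lpl, Atp6v0d2, Itgax or Pparg was seen. In ERBB2i the 10 barcodes held no UMI of Fabp4 or Pparg and 1 of Lpl, but 7 of Ctsk (339 CPM, 136 to 698), 7 of Ear1 and 9 of Atp6v0d2, and 4 of 10 held a UMI of Fabp4, Ctsk, Atp6v0d2 or Lpl. The MHC class II invariant chain Cd74 stood at 16998 CPM there and the cytokine gene Il1b at 3051, against 8493 and 293 in combination. None of the 12 held a C1q UMI. These barcodes are therefore called by the rule alone, and no comparison was made with fewer than 20 members, which left combination against vehicle.

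**Figure D2:**
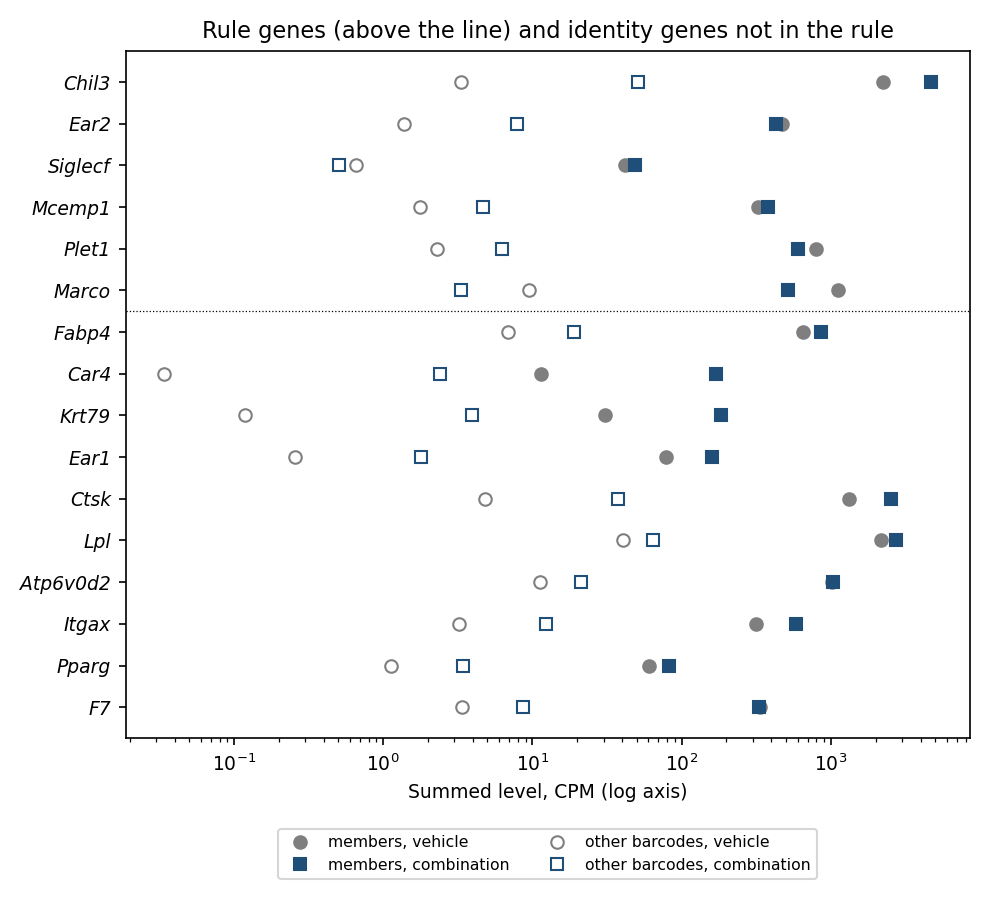
Summed level of the 6 rule genes and of 10 identity genes that the rule did not use (CPM, log axis) in member barcodes (filled) and in all other kept barcodes (open) of vehicle (67 members, grey circles) and combination (868 members, blue squares). For every gene shown the members lie above the other barcodes of their library, and Car4 and Krt79 stand at 11.4 and 30.4 CPM in vehicle members against 171 and 183 in those of combination.

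Markers of other cells were measured over the members. The 10 genes of neuroendocrine tumour cells summed to 1194 CPM in members of combination (5780 in its other barcodes) and 445 in those of vehicle (4458 in its others), with at least 2 such UMIs in 504 of 868 and 47 of 67. From these and 9 T cell genes, RNA from outside the cell would make up 20.4% of the UMIs of combination members and 9.96% of those of vehicle members. This counts all tumour UMIs as outside RNA, also those of any barcode that held a tumour cell, and such barcodes were not sought. The median member of combination stood at 723 CPM of the tumour genes. T cell genes summed to 22.8 CPM in combination and 5.71 in vehicle, fibroblast genes to 4.06 and 4.76 and endothelial genes to 4.69 and 10.5. Of the eosinophil genes, Epx, Prg2 and Il5ra had no UMI in any member of either library. Neutrophil genes summed to 1488 CPM in combination and 749 in vehicle, classical monocyte genes held 208 and 42 UMIs, dendritic cell genes summed to 34.4 and 31.4 CPM, patrolling monocyte genes to 131 and 500.4, of which Nr4a1 made up 45.9 and 403, eosinophil genes, here Alox15 and Ear6, to 111 and 635, alveolar type 2 genes to 123 and 98.0, B cell genes to 23.7 and 5.71 and haemoglobin and other erythroid genes to 274 and 110.4. In combination, 21 members held a UMI of Camp, Ngp, Lcn2 or Ltf, and 2 of them held 1545 of all 2158 such UMIs.

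Members were further divided by their C1q genes, which encode the recognition unit of the classical complement pathway and mark interstitial and tumour macrophages. In combination 638 of 868 (73.5%) held no C1q UMI, 88 held 1 to 3 and 142 (16.4%, 14.0 to 19.0) held at least 4. In vehicle 11 of 67 held none and 54 (80.6%, 69.1 to 89.2) at least 4, of which 24 were the Saa3/Prg4 barcodes. The C1q-rich members of combination were deeper, with a median of 6063.5 UMIs against 2337.5 in those without, and a barcode of higher depth reaches 4 UMIs more easily.

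**Figure D3:**
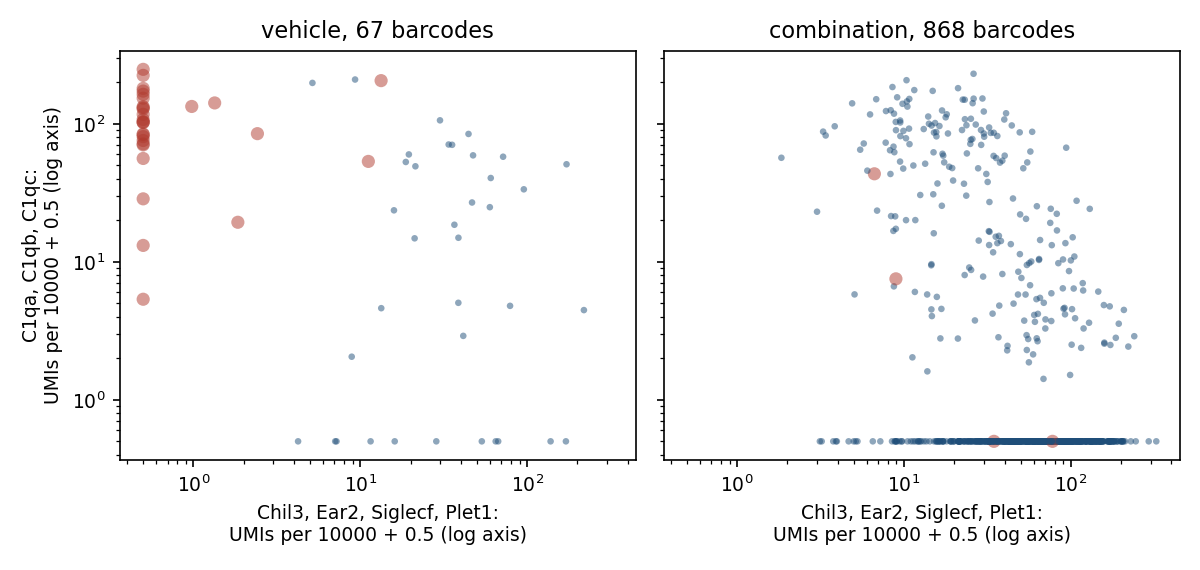
Each point is 1 member barcode of vehicle (left) or combination (right), placed by its UMIs of Chil3, Ear2, Siglecf and Plet1 (horizontal) and of C1qa, C1qb and C1qc (vertical), both per 10000 UMIs of the barcode on log axes, with 0.5 added. Large red points hold at least 5 UMIs of Saa3, 30 in vehicle and 4 in combination, and the 24 at the left edge of the vehicle panel have none of the 4 genes.

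Within combination, the members without C1q UMIs carried the genes most restricted to alveolar macrophages. Car4, a membrane carbonic anhydrase, had 482 UMIs in the 638 barcodes without C1q (256 CPM) and none in the 142 with at least 4. The keratin Krt79 stood at 271 against 19.6 CPM, Ear1 at 230.0 against 18.6, the scavenger receptor Olr1 at 568 against 123 and the neutrophil-attracting chemokine Cxcl3 at 331 against 21.7. Chil3 also differed, at 6193 against 1149 CPM. The shared genes did not separate in this way, since Ctsk stood at 2740 against 2211 CPM, Itgax (CD11c) at 596 against 563, Atp6v0d2 at 1010 against 1120 and Pparg at 84.4 against 79.5. The label is therefore less certain for the C1q-rich members of combination, which held these shared genes but no Car4 UMI.

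The C1q-rich members of combination carried the lipoprotein gene Apoe at 10188 CPM against 232 in those without C1q (log2 ratio 5.46, 95% interval 5.32 to 5.60). Ms4a7 stood at 849 against 42.5, Spic, a regulator of iron-recycling macrophages, at 118 against 2.12 and its target Slc40a1 (ferroportin) at 255 against 13.8. The collagenase Mmp13 stood at 1084 against 18.1 CPM, the phospholipase Pla2g2d at 2263 against 588 and Cxcl9, a T cell-attracting chemokine induced by interferon-gamma, at 719 against 250. MHC class II genes were also higher with C1q, H2-Aa at 4905 against 2065 CPM (log2 ratio 1.25, 1.19 to 1.31) and Cd74 at 14538 against 5012. Vehicle had only 11 members without C1q, to set beside the 30 with it that were no Saa3/Prg4 barcodes. Apoe (11515 against 74.7 CPM), Mmp13 (212 against 6.23) and Spic (178 against 0) had the same direction there, whereas H2-Aa (1289 against 2454 CPM) and Cd74 (5589 against 10495) had the opposite one. Krt79 was higher in the C1q-rich members of vehicle, but 90.6% of its vehicle UMIs came from 1 barcode. Likewise 1 barcode held 56.0% of the vehicle UMIs of Spic and 1 held 46.4% of those of Mmp13. Among the 11 members of vehicle without C1q, those with only 4 rule UMIs held 17 to 38 UMIs of tumour genes. Such barcodes were found in combination too, where a member with 4 rule UMIs held 51 UMIs of tumour genes and a member with 5 held 96.

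**Figure D4:**
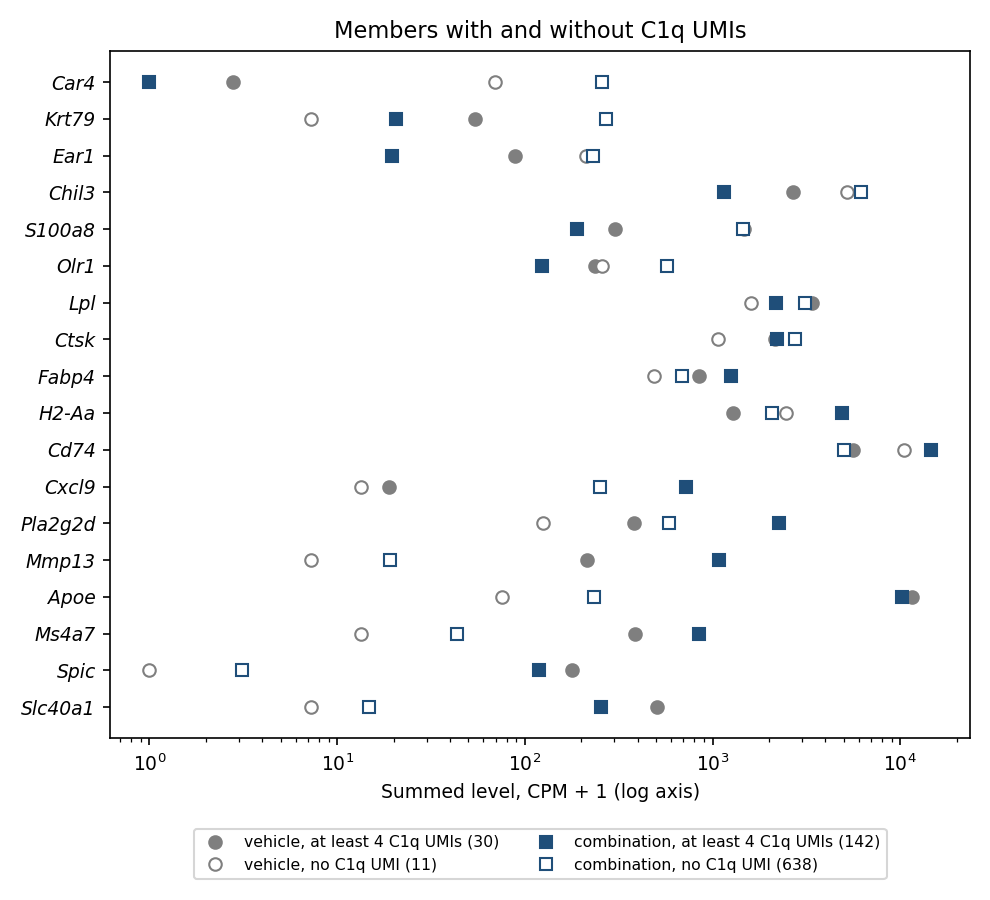
Summed level (CPM + 1, log axis) of 18 genes in members that hold a UMI of Chil3, Ear2, Siglecf or Plet1, with at least 4 C1q UMIs (filled) or none (open), in vehicle (grey circles) and combination (blue squares). In combination Car4, Krt79 and Ear1 are higher without C1q, and Apoe, Ms4a7, Spic, Slc40a1 and Mmp13 higher with it, while Ctsk (2211 and 2740 CPM) and Lpl (2168 and 3118) differ by less than 2-fold.

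Alveolar macrophage barcodes were then compared with C1q macrophage barcodes of the same library, which held at least 4 UMIs over at least 2 C1q genes and were not members (149 in vehicle and 451 in combination). Both libraries with at least 20 of each kind entered, as 4 summed profiles with library as a block and 1 residual degree of freedom, so that the spread rests mostly on what genes share. By edgeR's quasi-likelihood test with Benjamini-Hochberg adjustment, 353 of 10124 genes (3.49%) were higher and 216 (2.13%) lower in alveolar macrophages at an adjusted p under 0.05 and at least 2-fold, the genes used to choose barcodes left out. DESeq2 called 122 and 76. Without the block edgeR called none (651 genes at an unadjusted p under 0.05), and without the Saa3/Prg4 barcodes it called 439 and 332. Both kinds were chosen by their expression, so genes that go with the choosing genes had to differ, and the members were allowed no Ccr2 UMI while the C1q barcodes were.

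Of the 22 identity genes tested, 20 were higher in alveolar macrophages and none lower, with a median log2 fold of 1.91 against -0.0033 over all genes. Ctsk stood at 1327 against 16.3 CPM in vehicle and at 2534 against 329 in combination (log2 fold 4.35, edgeR adjusted p = 1.8e-06). Car4 had 12 UMIs against none in vehicle and 548 against 3 in combination, and Krt79 32 against none and 585 against 3. Cd2, known as a T cell adhesion receptor and also found on mouse alveolar macrophages, stood at 85.6 against 0 and 128 against 8.11 CPM (edgeR adjusted p = 1.6e-07). Of 15 genes of the GM-CSF and TGF-beta list 7 were higher, among them Csf2rb (log2 fold 1.46), Bhlhe41 (1.26), a repressor that sustains alveolar macrophages, and Pparg (1.07). Among the lipid genes higher in alveolar macrophages were Abcg1, a cholesterol exporter, by 1.26, the scavenger receptor Cd36 by 1.06, Lpl by 1.63 and Fabp4 by 1.43, and Apoe was lower by 1.67 on the log2 scale. Among lysosome genes Ctsk was higher, and of 15 uptake receptors Clec4n, Tlr2 and Itgb2 were higher. The fold of Itgb2 (log2 fold 1.01) fell under 2-fold without the Saa3/Prg4 barcodes (0.93).

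The genes with the largest folds higher in alveolar macrophages, with the same sign in both libraries, were Cxcr2, Flvcr2, Lipf, Krt79, Wfdc21, Car4, S100a9, Ear1, Cxcl3, Cd200r2, S100a8, Ear6, Ccdc80, Cd2 and Perp. Cxcr2, a chemokine receptor known from neutrophils, had 49 UMIs in vehicle and 202 in combination members and none in C1q barcodes (edgeR adjusted p = 7.7e-08). It was seen in 7 members of vehicle, 1 of which held 63.3% of its vehicle UMIs, and in 95 members of combination. S100a8, a calcium-binding protein of neutrophils, stood at 504 against 18.3 CPM in vehicle and 1114 against 33.7 in combination, and S100a9 at 143 against 1.02 and 287 against 3.74. S100a9 was seen in only 11 members of combination and 2 of vehicle, S100a8 in 277 and 29, and 1 barcode held 37.5% of the S100a8 UMIs of combination and 1 held 40.4% of those of vehicle. Flvcr2 had 18 UMIs in vehicle and 39 in combination members, and Lipf, a lipase, 14 and 45, with none in C1q barcodes. Wfdc21, a small secreted protein, stood at 303 against 5.08 and 401 against 2.49 CPM.

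Lower in alveolar macrophages by the largest folds were Retnla, Cd4, Fcrls, Zmynd15, F13a1, Htr2b, Pxdc1, Tmem26, Ccl8, Gdf3, Fcrl5, Cd72, Ccl12, BC049352 and Ms4a4c. Ccl8, a monocyte-attracting chemokine, had 2 UMIs in members of vehicle against 124 in C1q barcodes and 20 against 288 in combination (edgeR log2 fold -5.01, adjusted p = 1.1e-09). The coagulation factor gene F13a1 stood at 5.71 against 153 and 0.625 against 58.6 CPM, and the resistin-like gene Retnla at 0 against 43.7 and 0.312 against 41.8. Of 11 genes of the C1q and interstitial list that did not choose barcodes 9 were lower, among them Cx3cr1, the fractalkine receptor (log2 fold -3.81), Maf (-2.78), Folr2 (-3.19) and Ms4a7 (-2.21). Of 5 classical monocyte genes 4 were lower, a group that the Ccr2 condition bears on.

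Immune function genes were divided. None of 14 MHC class I and none of 11 MHC class II genes passed. Of 12 chemokine genes 3 were higher (Cxcl1, Cxcl3 and Ccl6) and 3 lower (Ccl2, Ccl4 and Ccl5). Of 14 cytokine genes 3 were higher, Il18 (log2 fold 2.01), the interleukin 1 antagonist Il1rn (1.56) and Tnf (1.34), and of 19 interferon response genes none was higher and 3 were lower, Ifi44, Cxcl10 and Ifitm3. Of 10 tumour-associated macrophage genes Spp1 (osteopontin, log2 fold 1.57) and Cd9 were higher and Retnla lower, and of 8 checkpoint genes Cd200r1 was higher (1.37). Of 8 stress genes of the ATF4 list the cystine transporter Slc7a11 (2.40) and Phgdh (2.63) were higher. Of 16 immediate early genes 2 were lower, both heat shock genes, of 10 iron genes Slc40a1 was lower, and none of 16 cell cycle, 11 glycolysis, 6 mitochondrially encoded complex I and 10 tumour genes passed. The fold of Slc40a1 (log2 fold -1.09) fell under 2-fold without the Saa3/Prg4 barcodes (-0.81). The 4 haemoglobin genes tested passed as higher, but in combination 1 barcode held 87.2% to 97.0% of the UMIs of each, and Hba-a2 did not have the same sign in both libraries. Sftpc, an alveolar type 2 gene, was lower, with 68.1 CPM in members against 2245 in C1q barcodes of combination. Of the remaining lists, Ear6 (eosinophil) and Ace (patrolling monocyte) were higher, and Cd300e (patrolling monocyte), Ighm (B cell) and Pecam1 (endothelial) lower.

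Combination was then compared with vehicle over the members, without a test. Of 9063 genes compared, 1058 (11.7%) were at least 2-fold higher and 482 (5.32%) at least 2-fold lower in combination. Their median log2 ratio was 0.24, so that a gene at 0 lies below the middle of the table. With TMM scaling, which set this median to 0.02, 592 were higher and 671 lower, so that the larger count turned from higher to lower, while every list median named below kept its sign. Without the Saa3/Prg4 barcodes 858 (10.9%) of 7881 genes were higher and 300 (3.81%) lower.

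By the interval bound nearest to 0, the genes farthest below vehicle were Serpinb2, Vsig4, Alox15, Fcna, Prg4, Cxcl13, Saa3 and Cd5l. Saa3 stood at 8959 CPM in vehicle and 55.0 in combination (log2 ratio -7.35, -7.57 to -7.13), and at 1040 in vehicle without those barcodes. Prg4 stood at 2460 and 8.75 CPM, and at 482 in vehicle without them. Vsig4, a complement receptor of resident macrophages, had 359 UMIs in vehicle, 14 without those barcodes, and none in combination. Without those barcodes 5 of these 8 were still among the 8 farthest below vehicle, namely Serpinb2 (-7.77), Alox15 (-7.77), Fcna (-7.35), Cxcl13 (-6.47) and Prg4 (-5.78). Only 24 of the 30 vehicle members with at least 5 Saa3 UMIs were left out, however, and 755 Saa3 UMIs stayed in vehicle. Whether the remaining Saa3 barcodes carry these 5 differences was not tested.

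Higher in combination by the same rule were Ngp, Camp, Cxcl9, Ubd, Ltf, Car4, H2-M2 and AU040972. Camp, Ngp and Ltf were seen in 5, 5 and 11 of the 868 barcodes, and AU040972 in 2, so that these values belong to a few barcodes. Cxcl9 stood at 403 CPM in combination and 13.3 in vehicle (log2 ratio 4.92, 4.17 to 5.79), in 162 of 868 and 8 of 67 barcodes. The MHC class Ib gene H2-M2 stood at 1215 and 137 CPM (3.15, 2.91 to 3.40), in 468 and 19 barcodes. Both stayed higher without the Saa3/Prg4 barcodes (log2 ratios 4.38 and 2.62) and among members with at least 4 C1q UMIs, 142 and 30 barcodes (5.33 and 3.03). Ubd, a ubiquitin-like protein induced by interferon-gamma, had 160 UMIs in 18 barcodes of combination and none in vehicle, a log2 ratio of at least 4.13 with vehicle set at 3 counts.

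Of the 23 identity genes compared 4 were at least 2-fold higher and 1 lower, with a median log2 ratio of 0.58, which was 0.18 without the Saa3/Prg4 barcodes and -0.48 among C1q-rich members. Car4 (171 and 11.4 CPM, log2 ratio 3.91, or 3.37 without those barcodes), Krt79 (183 and 30.4, 2.59, or 2.10) and Ear1 (161 and 79.0, 1.02, or 0.49) were higher in combination. Krt79 (-1.45) and Ear1 (-2.23) were lower in combination among the C1q-rich members, as was Chil3 (-1.22). Car4 had 1 UMI in the C1q-rich members of vehicle and 0 in those of combination. It was seen in 3 of 67 barcodes of vehicle and 147 of 868 of combination. Members without C1q UMIs were 638 of 868 in combination but 11 of 67 in vehicle, and whether this mix carries the Car4 difference was not tested. Ltc4s, leukotriene C4 synthase, was lower, at 157 and 444 CPM (95% interval of the log2 ratio -1.69 to -1.32), but by less than 2-fold without the Saa3/Prg4 barcodes (-0.56). Marco was lower with all members (-1.13) and higher without the Saa3/Prg4 barcodes (0.52), which held most of its UMIs in vehicle. Fabp4 (863 and 652 CPM) and Lpl (2726 and 2181) differed by less than 2-fold.

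MHC class II genes, 11 compared, had 3 at least 2-fold higher and 2 lower with a median of 0.61, or 0.35 without the Saa3/Prg4 barcodes. H2-Aa stood at 3141 CPM in combination and 1248 in vehicle (1.33, 1.25 to 1.42, or 1.02 without them), and its transactivator Ciita at 36.9 and 12.4 (1.58, 0.75 to 2.53, or 1.42). Among C1q-rich members the median was 1.38, with Cd74 at 14538 and 5589 CPM. MHC class I genes had a median of 0.30 (0.39 without them), with 0 of 14 higher and 1 lower. Of 19 interferon response genes 3 were higher and 5 lower (median -0.18), and the lower ones included Ifitm3, an antiviral membrane protein, at 40.9 and 902 CPM (-4.46), with 212 CPM in vehicle without the Saa3/Prg4 barcodes (-2.37). The median of this list rose above 0 without the Saa3/Prg4 barcodes (0.25). For some of its genes 1 barcode held most vehicle UMIs, with 80.3% for Ifit1, 57.6% for Ifit2, 70.8% for Ifit3 and 82.2% for Rsad2. By the mean over barcodes these stood higher in combination, Ifit1 at 52.2 and 45.9 CPM and Ifit2 at 100 and 33.0. Ifit3 stood at 50.7 and 25.7, and Rsad2 at 91.8 and 56.2. The T cell-attracting chemokine Ccl5 stood at 132 and 16.2 CPM (3.03, 2.33 to 3.82, or 4.00 without those barcodes). It was seen in 93 barcodes of combination and 3 of vehicle.

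Chemokine genes, 13 compared, had 3 higher and 6 lower (median -0.98, or -1.01 without the Saa3/Prg4 barcodes). The monocyte attractants Ccl2 (3.12 and 66.6 CPM, -4.41) and Ccl7 (1 UMI and 106, -8.33) were lower in combination, also without the Saa3/Prg4 barcodes, where vehicle held Ccl2 at 44.1 and Ccl7 at 55.1 CPM. Cxcl3 was higher with all members (222 and 58.0 CPM, 1.94, or 1.40 without those barcodes) and lower among C1q-rich ones (-1.86). Of 13 cytokine genes none was higher and 5 were lower (median -0.80, or -0.58 without them), and Il10 stood at 1.56 and 62.8 CPM, with 6.89 CPM in vehicle without the Saa3/Prg4 barcodes. Of 7 checkpoint genes none was higher and 2 were lower (-0.74, or -0.59), and Cd274, which encodes PD-L1, stood at 89.3 and 149 CPM (-0.74, -1.03 to -0.45, or -1.09).

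Of 16 immediate early genes none was higher and 10 were lower in combination (median -1.47), and 8 of 15 were lower without the Saa3/Prg4 barcodes (-1.18). Nr4a1 stood at 45.9 and 403 CPM (-3.14, or -2.66 without them), Fosb at 72.8 and 317 (-2.12, or -2.47) and Klf2 at 49.4 and 994 (-4.33, or -2.97), and all 3 were lower among C1q-rich members too (-2.87, -2.62 and -4.85). Genes of this list also respond to tissue dissociation. Of 11 glycolysis and hypoxia genes 6 were lower (median -1.02), or 4 without those barcodes (-0.40). Vegfa, the angiogenic factor, stood at 19.1 CPM in combination and 186 in vehicle (-3.28, -3.72 to -2.86), at 185 without the Saa3/Prg4 barcodes, and at 19.6 and 153 among C1q-rich members. Vegfa was seen in 45 of 868 barcodes of combination and 29 of 67 of vehicle.

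Of 9 tumour-associated macrophage genes 1 was higher and 3 lower (median -0.18), or 1 and 4 without the Saa3/Prg4 barcodes (-0.43). Mmp14, a membrane metalloproteinase, was higher (589 and 195 CPM, 1.60, or 1.20 without them), and Arg1 was lower (48 and 1726 UMIs, -6.78, or -4.95 without the Saa3/Prg4 barcodes). The summed level of Spp1 was lower (4537 and 9259 CPM, -1.03, or -1.56 without them), but over barcodes the order was not the same. Spp1 was seen in 736 of 868 and 39 of 67 barcodes, with a median barcode level of 2175 and 269 CPM and a mean of 5582 and 5476, and 1 barcode held 28.4% of its vehicle UMIs. Uptake receptors had 0 of 15 higher and 5 lower (median -0.67), or 3 lower without those barcodes (-0.57), with the endotoxin co-receptor Cd14 at 395 and 1908.5 CPM (-2.27, or -1.70) and the scavenger receptor Msr1 at 181 and 772 (-2.09, or -1.72). Of 19 lipid genes 3 were higher (median 0.31, or -0.08 without those barcodes) and 1, Apoe, was lower (3312 and 12184 CPM, -1.88, or -1.43, but -0.18 among C1q-rich members). Slc7a11 was higher (393 and 101 CPM, 1.96, or 1.45), in 434 of 868 and 24 of 67 barcodes. Of 16 lysosome genes 2 and of 10 iron genes 2 were lower and none higher (medians -0.29 and -0.51, or -0.26 and -0.44), of 15 genes of the GM-CSF and TGF-beta list 1 was higher and 3 lower (-0.35, or -0.27). Of 11 C1q and interstitial genes 7 were lower (-1.43), but 2 of 10 without the Saa3/Prg4 barcodes (-0.76). Of 8 ATF4 stress genes 2 were higher and none lower (0.34, or 0.43), of 6 mitochondrially encoded complex I genes 1 was lower (-0.41, or -0.63), and Rb1 (34.7 and 47.6 CPM) and Trp53 (19.1 and 22.8), the genes deleted in the tumour cells, differed by less than 2-fold. Of 16 cell cycle genes none passed 2-fold (median 0.45, but -0.14 with outside RNA subtracted), and of 9 tumour genes 7 were higher (1.42, or 2.49 with outside RNA subtracted). The tumour genes also served to estimate the share of outside RNA, which was larger in combination. The 4 neutrophil genes compared had a median of 0.72, or -1.12 without barcodes holding a UMI of Camp, Ngp, Lcn2 or Ltf.

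**Figure D5:**
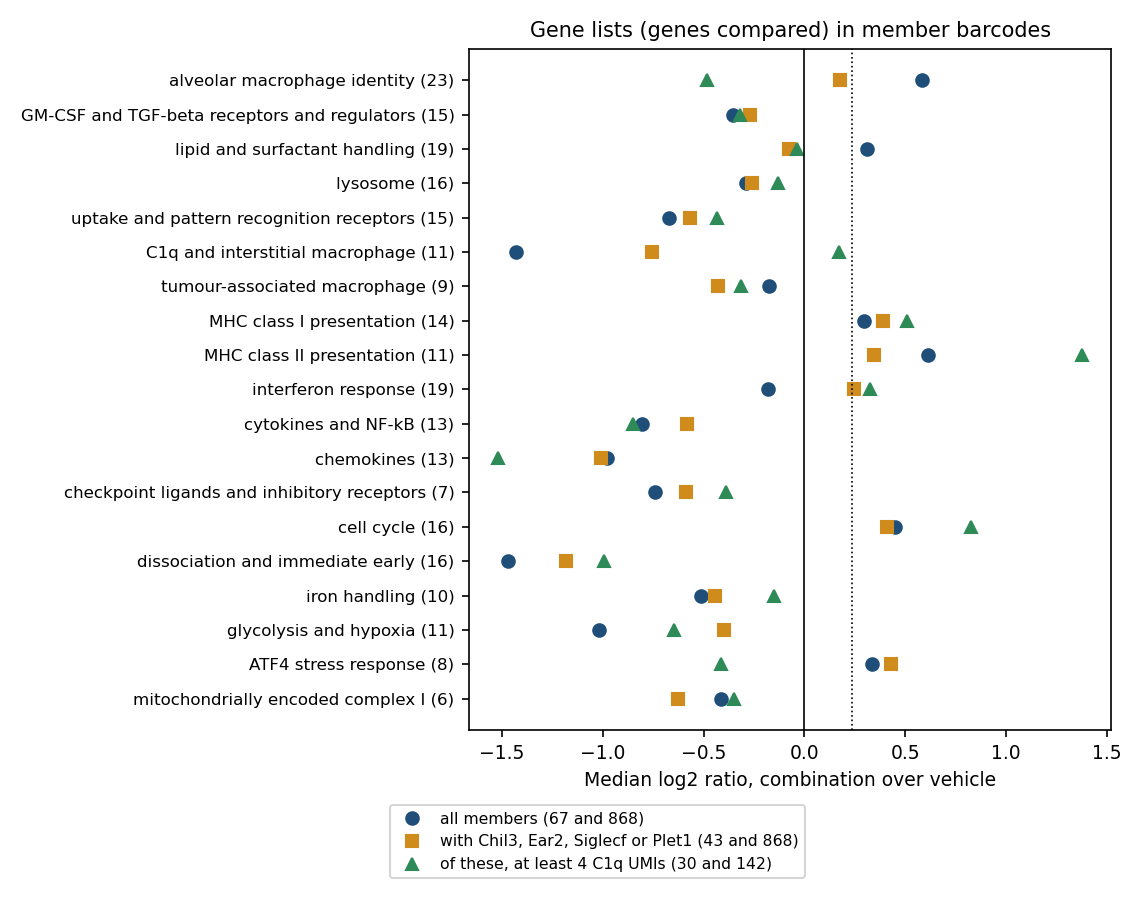
Median log2 ratio of combination over vehicle for 19 gene lists (genes compared in brackets) over all members (blue circles), members with a UMI of Chil3, Ear2, Siglecf or Plet1 (orange squares) and those of them with at least 4 C1q UMIs (green triangles), and the dotted line is the median of all 9063 genes, 0.24. Chemokine, cytokine, immediate early, uptake and hypoxia lists lie below 0 in all 3 sets, the MHC class I and class II lists above it, and the identity, lipid, C1q, interferon and ATF4 lists change sign between sets.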

How the data were processed

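Single-cell RNA libraries were prepared from mouse lung tumours, 1 library for each of 5 treatment groups, on a microfluidic chip platform. The deposited matrices hold counts, whole numbers of UMIs per gene (32589 genes) and barcode, made by the authors by alignment to mm10 and not normalized. The paper's methods name CeleScope and the submitters' processing notes name Cell Ranger and Scanpy, with no versions given in the sources used here. The study's own cell filters and doublet removal were not applied, and no doublets were called. All mapped columns were used (0 left unused).

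Members and gene lists were chosen with earlier results of these data known. UMIs were summed over member barcodes per library. Between libraries, genes with an expected count of at least 10 UMIs were compared, a ratio past 2-fold was called, and a count of 0 was set at 3 counts over the library's members. Intervals are exact at 95% and cover counting error only. Alveolar and C1q macrophage sums were compared with edgeR 4.0.16 (quasi-likelihood, TMM scaling, library as block, filterByExpr, Benjamini-Hochberg) in R 4.3.3, with DESeq2 1.42.0 as an alternative. Library is the block because both kinds of barcode came from the same library. Python 3.11.15, scipy 1.17.1 and Biopython 1.88 served for the rest. Outside RNA was estimated from tumour and T cell genes. The scripts were tested on simulated data.

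Named were the rule genes, list genes, the 8 genes in each direction whose interval bound lay farthest from 0 among those at least 2 times above other barcodes in the library where they are higher, and the 15 with the largest edgeR fold in each direction. Pla2g2d, Mmp13, Gata6 and Icam2 were chosen after their values were seen, as were Saa3 and the other genes of the Saa3/Prg4 barcodes when used to describe these. The comparisons without the Saa3/Prg4 barcodes, without barcodes holding granule genes and among C1q-rich members were added after seeing the data. Results of some genes are not reported here.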

Additional observations from a re-analysis of the deposited data

Results flagged for a closer look

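In libraries left out of the comparison for their few members, genes of another cell type were above the level in vehicle. The 6 neutrophil genes summed to 283969 CPM over the 2 member barcodes of anti-PD-1 and to 23632 CPM over the 10 of ERBB2i, against 749 CPM in the members of vehicle. In each of both libraries 1 barcode held all UMIs of the granule genes Camp, Ngp, Lcn2 and Ltf, 1860 in anti-PD-1 and 109 in ERBB2i. The median ERBB2i member held no UMI of the 6 genes.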

How the results depend on the processing

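The share of members was higher in combination than in vehicle, and in vehicle than in ERBB2i and anti-PD-1, under each alternative run. It was 0.507% in vehicle, 0.0152% in ERBB2i and 2.39% in combination with at least 8 rule UMIs, 0.279%, 0.0152% and 2.37% with at least 3 rule genes, and 0.114%, 0.00761% and 1.21% (anti-PD-1 0) after thinning, and 0.444% in vehicle without the Saa3/Prg4 barcodes. Genes higher and lower in combination numbered 513 and 306 at an expected count of 25 and 2027 and 983 at 2. TMM scaling gave 592 higher, C1q-rich members 476 higher, and members without the Saa3/Prg4 barcodes 300 lower. The identity list median was 0.18 without the Saa3/Prg4 barcodes and -0.48 among C1q-rich members. Among the latter the C1q list turned to 0.17, Chil3 to -1.22, Krt79 to -1.45, Ear1 to -2.23 and Cxcl3 to -1.86, and the medians were 1.38 for MHC class II and 0.83 for cell cycle. Marco turned to 0.52 without the Saa3/Prg4 barcodes. With outside RNA subtracted the medians were -0.14 for cell cycle, 2.49 for tumour and 4.67 for haemoglobin and other erythroid genes, and the neutrophil median was 1.34 with at least 8 rule UMIs. For alveolar against C1q macrophages DESeq2 called 122 higher and 76 lower, the fit without the replicate block 0 and 0, and the fit without the Saa3/Prg4 barcodes 332 lower. Beyond what an alternative's construction shows (fewer barcodes or genes), the cause was not tested. A stricter choice, which allowed under 2 UMIs of tumour, T and B cell genes in sum, left 340 of the 868 members of combination. It left 19 members in vehicle, under the 20 required, so that no comparison was run with it. Leaving out a library was not run either, since it leaves no residual degree of freedom.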
